A study of Mus musculus with 12 samples.

Results

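Cd177 and the Ceacam genes Ceacam10, Ceacam1, Ceacam2, Ceacam18 and Ceacam20 were followed as 6 named genes among the 55304 gene symbols counted in colonic epithelium of mice. They were chosen by name, with their levels in these libraries already known, and all 6 were among the 15743 genes with enough counts to be tested. The series holds 1 library from each of 12 mice, all C57BL/6 and 6 weeks old, in 3 groups of 4. Control OIL mice had a wild-type genotype label and received sunflower oil. Ehf IKO mice were labelled as intestinal knockouts of Ehf, which encodes an ETS transcription factor of epithelial cells, and received tamoxifen. The source names of both these groups begin with EVCER, which the labels do not spell out. Control TMX mice came from a VilCreER source, had a wild-type label and received tamoxifen. That line carries a Cre recombinase made active by tamoxifen and driven by the Villin promoter, which is active in intestinal epithelium, and the series text gives it as a control for effects of tamoxifen. The 2 control groups therefore differ both in the agent given and in the line, and those causes cannot be told apart between them. Ehf IKO differs from Control OIL in the genotype label and the agent, and from Control TMX in the genotype label and the source line. Within either comparison these cannot be told apart.

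The carcinoembryonic antigen family, whose genes are named Ceacam and Psg, makes immunoglobulin-domain proteins that are secreted or sit on cell surfaces. CEACAM1 is an adhesion receptor that binds itself and other family members between neighbouring cells and carries inhibitory motifs that recruit SHP phosphatases. CEACAM20 is a protein of intestinal microvilli, and CEACAM10 is a secreted member described in mouse. CD177 belongs to another family, the Ly6 and uPAR proteins, is held in the membrane by a glycosylphosphatidylinositol (GPI) anchor, and is best known from neutrophils, where it binds PECAM1 and carries proteinase 3. EHF, like other ETS factors, binds DNA at sites with a GGAA core.

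All 6 genes lie on mouse chromosome 7 (GRCm38). Cd177 (ENSMUSG00000052212) spans bases 24743983 to 24760311 on the minus strand. Ceacam10 (ENSMUSG00000054169) spans 24777206 to 24784657 on the plus strand. The pair lie head to head, 16895 bases apart, with no annotated gene between them, so that both promoters are in the gap. Ceacam1 (ENSMUSG00000074272, 25461707 to 25477603) and Ceacam2 (ENSMUSG00000054385, 25516042 to 25539857) lie farther along on the minus strand. Ceacam20 (ENSMUSG00000070777, 19965412 to 19991104) and Ceacam18 (ENSMUSG00000030472, 43634707 to 43649295) lie on the plus strand, each at a distance from the rest.

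The 250 bases before the start of each gene were read from RefSeq on GRCm38.p6, where 6 of 6 members were matched. The RefSeq starts did not all match the spans given above. The promoters of the 2 genes with the largest differences between groups, and those of Ceacam1 and Ceacam2, whose windows are most like that of Ceacam10, are printed 5′ to 3′ on the strand of the gene. Capitals mark GGAA or its reverse complement TTCC. They are at chr7:24760312-24760561 (minus strand), chr7:24776917-24777166 (plus strand), chr7:25477626-25477875 (minus strand) and chr7:25540005-25540254 (minus strand).
Cd177: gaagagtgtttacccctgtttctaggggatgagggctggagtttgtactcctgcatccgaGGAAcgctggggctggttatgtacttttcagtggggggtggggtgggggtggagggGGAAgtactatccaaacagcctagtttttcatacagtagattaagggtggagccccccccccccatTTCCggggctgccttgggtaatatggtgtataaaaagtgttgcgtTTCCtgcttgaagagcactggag
Ceacam10: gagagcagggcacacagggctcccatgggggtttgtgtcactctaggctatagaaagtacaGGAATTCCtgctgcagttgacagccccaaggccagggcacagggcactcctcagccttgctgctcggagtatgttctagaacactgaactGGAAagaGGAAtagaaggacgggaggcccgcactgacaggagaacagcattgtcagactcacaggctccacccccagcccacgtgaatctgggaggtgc
Ceacam1: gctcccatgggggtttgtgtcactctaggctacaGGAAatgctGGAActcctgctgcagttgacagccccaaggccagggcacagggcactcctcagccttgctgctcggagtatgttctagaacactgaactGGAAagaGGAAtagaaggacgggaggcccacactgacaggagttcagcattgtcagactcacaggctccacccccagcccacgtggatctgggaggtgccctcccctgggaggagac
Ceacam2: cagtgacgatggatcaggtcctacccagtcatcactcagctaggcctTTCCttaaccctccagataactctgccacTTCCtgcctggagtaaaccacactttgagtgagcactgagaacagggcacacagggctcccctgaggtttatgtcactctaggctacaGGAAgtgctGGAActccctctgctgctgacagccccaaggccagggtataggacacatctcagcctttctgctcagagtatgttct
Counted on both strands, GGAA occurred 4 times in each of these 4 windows, 2 times before Ceacam18 and 6 times before Ceacam20. Of 27025 mouse promoter windows of this length 93.4% held GGAA, with a median of 3 and a ninth decile of 5 matches. The members' numbers are thus common, except that the 6 matches before Ceacam20 lie above the ninth decile. The longer form GGAAG, which contains GGAA, occurred 1 time before Cd177, 2 times before Ceacam2, 1 time each before Ceacam18 and Ceacam20, and not before Ceacam10 or Ceacam1, against 63.7% of all windows. The 8-base form CCGGAAGT, which contains both, was in none of the 6 windows and in 2.92% of all windows. The windows of Ceacam10 and Ceacam1 aligned over 232 bases without a gap, and 222 of these bases (95.7%) were identical. Of the 4 GGAA matches in each, 3 lay at aligned positions. Where they could be aligned, the windows of Ceacam10 and Ceacam2 were identical in 84.8% of columns and those of Ceacam1 and Ceacam2 in 86.7% of 120 columns. Cd177 aligned with Ceacam10 over 13 bases alone. Within this window Ceacam10 and Ceacam1 thus had close to the same sequence. Their levels across the groups, given next, were unlike, and the part of the promoter sequence in the levels was not tested.

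Depth ran from 7421411 to 10344161 reads counted per library. All 13 markers of colonic epithelium were counted, at a summed 18800 to 34200 CPM (counts per 1000000 reads in tested genes, scaled with TMM factors). Mitochondrial genes took 10.7% to 26.3% of the counts. Ehf IKO replicate 2 stood apart in that 12 genes with at least 100 CPM there and at least 50 times the CPM of any other library took 10.4% of its counts, against at most 0.114% elsewhere. Ehf itself was at 428 ± 46.4, 345 ± 21.0 and 341 ± 30.1 CPM (SD, n = 4) in Control OIL, Control TMX and Ehf IKO. Its log2 difference was -0.33 ± 0.11 (SE) between Ehf IKO and Control OIL (edgeR adjusted p = 0.159) and -0.02 ± 0.11 between Ehf IKO and Control TMX (edgeR adjusted p = 0.972). The labels name no deleted exon and the values are counts over the whole gene, so they do not measure the deletion.

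Cd177 and Ceacam10 were lowest in Ehf IKO, intermediate in Control TMX and highest in Control OIL, with no overlap between any 2 groups. Cd177 stood at 244, 203, 321 and 285 CPM in Control OIL replicates 1 to 4. In Control TMX it stood at 77.2, 92.2, 95.7 and 103 CPM. In Ehf IKO it stood at 7.22, 4.14, 7.45 and 8.46 CPM, from 62, 30, 56 and 63 reads. The highest Ehf IKO library was thus far under the lowest Control TMX library, and replicate 2 was the lowest of all 12. The group means were 263 ± 51.2, 91.9 ± 10.7 and 6.82 ± 1.87 CPM (SD, n = 4). Fewer cells that express a gene and less RNA per cell cannot be told apart in such bulk samples.

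Ceacam10 kept the same order of groups at a lower level. Its CPM was 33.0, 23.9, 32.6 and 26.4 in Control OIL and 5.90, 7.29, 7.52 and 8.60 in Control TMX. In Ehf IKO it was 0.582, 1.10, 0.665 and 2.82 CPM, from 5, 8, 5 and 21 reads. These 39 reads have a 95% Poisson interval of 27.7 to 53.3, which covers counting error only. The group means were 29.0 ± 4.54, 7.33 ± 1.11 and 1.29 ± 1.04 CPM, and the spread in Ehf IKO came mostly from replicate 4, the highest of its group.

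**Figure D1:**
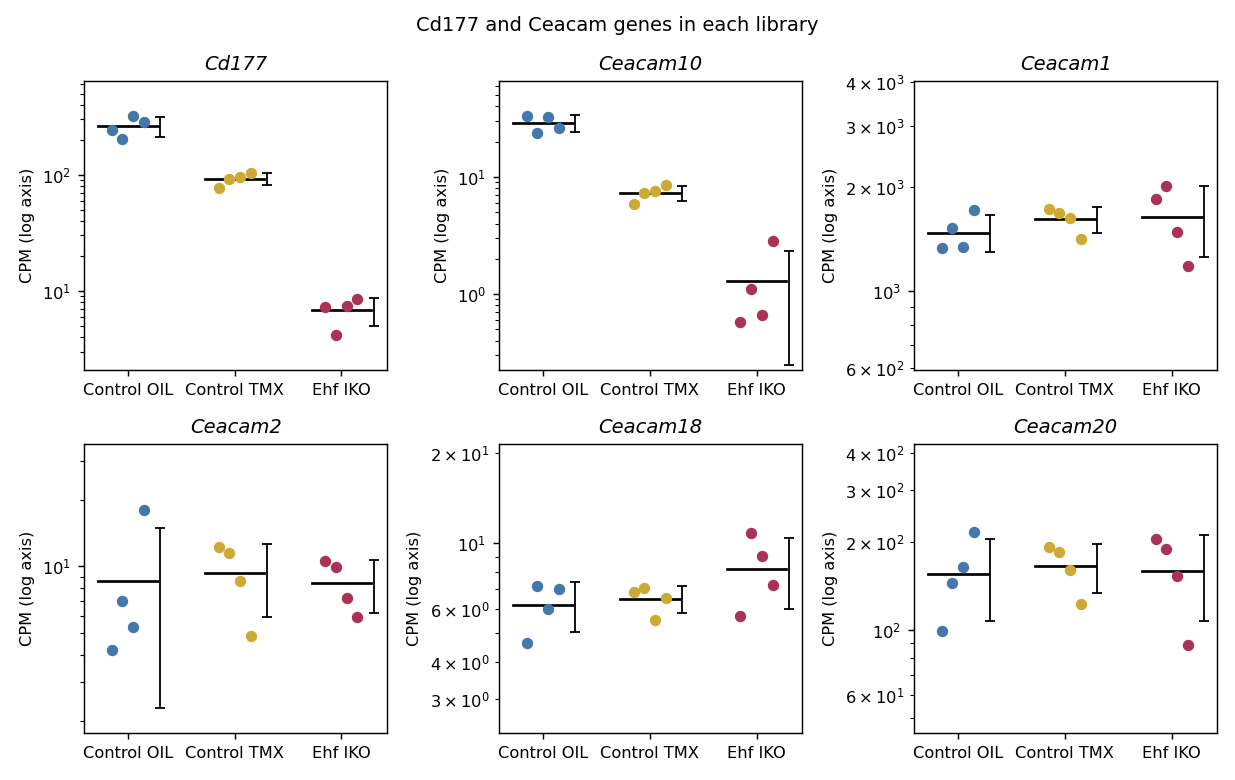
Level of each of the 6 genes in every library, in CPM on a log axis that differs between panels. Points are libraries of Control OIL, Control TMX and Ehf IKO (4 each), horizontal lines are group means and bars are ± 1 SD. For Cd177 and Ceacam10 the 3 groups are separate, with Ehf IKO means of 6.82 and 1.29 CPM, and for the other genes the groups overlap.

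The differences of Ehf IKO from the controls were among the results known when these genes were chosen, so they are given as a description with no test. Cd177 was lower in Ehf IKO than in Control OIL by 38.4-fold (log2 difference -5.26 ± 0.20, SE), the largest fall of all genes tested. Ceacam10 was lower by 22.5-fold (-4.49 ± 0.31), the third largest. Against Control TMX, Cd177 was lower by 13.4-fold (-3.75 ± 0.20) and Ceacam10 by 5.74-fold (-2.52 ± 0.33). Of the 6 members these 2 were lower in Ehf IKO without overlap in either comparison, where 3.29% of all genes tested were so against Control OIL and 3.87% against Control TMX. Since the genes were picked with these contrasts in view, nothing is read from that share. Without Ehf IKO replicate 4 the log2 differences of Ceacam10 were -5.20 and -3.23, a change of more than 1.5-fold that no other left-out library gave for either gene. The comparisons share groups, so their values are not independent of each other. Each also joins the genotype label with the agent or the line, and these cannot be told apart.

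Between the 2 control groups, Cd177 and Ceacam10 fell in Control TMX. Cd177 fell by 1.52 ± 0.16 on the log2 scale, or 2.86-fold (edgeR quasi-likelihood test, adjusted p = 0.0020, 95% interval -1.87 to -1.17). It had the smallest p of all 15743 genes. Ceacam10 fell by 1.97 ± 0.25, or 3.91-fold (edgeR adjusted p = 0.00404, 95% interval -2.49 to -1.44). Each was lower in 4 of 4 Control TMX libraries than in any Control OIL library. Of the 6 members these 2 were called lower, where 0.0445% of all genes tested were (7 genes), and 3.20% of all genes were lower without overlap. Both calls held in all 21 alternative settings, with log2 differences of -1.62 to -1.41 for Cd177 and -2.06 to -1.89 for Ceacam10. The levels in both control groups were known when the genes were chosen, so this test is not independent support. The groups also differed without overlap in fibroblast markers, with 7 of 7 counted and a sum of 264 to 375 CPM in Control OIL and 389 to 668 in Control TMX. Markers of B and plasma cells, mostly the immunoglobulin gene Igha, summed to 48.8 to 98.3 CPM in Control OIL and 29.4 to 44.8 in Control TMX. The 6 endothelial markers summed to 3.95 to 5.42 and 5.33 to 10.4 CPM. No tested marker of any list was called between the controls by edgeR. Their part in the result was not tested.

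The levels of Cd177 and Ceacam10 can be set against each other per kilobase of exon (RPKM). In Control OIL Cd177 was 3.90, 4.47, 5.19 and 5.70 times as abundant as Ceacam10 in replicates 1 to 4. In Control TMX the ratio was higher in every library, at 6.89, 6.66, 6.70 and 6.28. In Ehf IKO the ratio was 6.53, 1.98, 5.90 and 1.58, so that replicates 2 and 4 were lower than all control libraries. Replicate 2 was the library with the fewest reads of Cd177 and replicate 4 that with the most reads of Ceacam10 in the group, at depths of 8 and 21 Ceacam10 reads. Across the 12 libraries log2 CPM of the pair had a Pearson r of 0.96 and a Spearman rho of 0.96, values that the group differences set. After the group means were taken away, r was 0.30 and rho 0.31, and r was 0.43 without the 2 libraries farthest from the median. In Control TMX replicate 1 was the lowest and replicate 4 the highest for both genes, while in Ehf IKO, with 5 to 21 Ceacam10 reads, the libraries were ordered differently. By their counts of Xist and of genes on the Y chromosome, replicates 1 and 2 of every group read as female and 3 and 4 as male, which the group labels used here do not give. In each group Cd177 was higher in both male libraries than in both female ones, at 285 and 321 beside 203 and 244 CPM in Control OIL. With an additive term for sex also taken away, chosen after the values were seen, the r of the pair was 0.05. Sex and replicate number cannot be told apart here, and the part of sex in the levels was not tested.

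The remaining 4 members did not separate the groups in any of the 3 comparisons. Ceacam1, the adhesion receptor, was the most abundant member in every group, at 1333, 1518, 1342 and 1716 CPM in Control OIL. It was at 1725, 1686, 1624 and 1416 CPM in Control TMX and 1846, 2018, 1482 and 1186 CPM in Ehf IKO. Ehf IKO held both the highest and the lowest library. The group means were 1477 ± 181, 1613 ± 137.6 and 1633 ± 373 CPM. Its log2 difference between Ehf IKO and Control OIL was 0.14 ± 0.15, and between Ehf IKO and Control TMX 0.02 ± 0.15. Between the controls it was 0.13 ± 0.15 (edgeR adjusted p = 0.765, 95% interval -0.20 to 0.45).

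Ceacam20, the microvillar member, ranged widely within each group. It was at 98.8, 144, 163 and 216 CPM in Control OIL and at 192, 184, 160 and 123 CPM in Control TMX. In Ehf IKO it was at 204, 189, 152.5 and 88.9 CPM. The spread within a group was larger than any difference of the means, which were 155 ± 48.4, 165 ± 31.1 and 159 ± 51.2 CPM. Its log2 differences were 0.03 ± 0.26 (Ehf IKO with Control OIL) and -0.05 ± 0.26 (Ehf IKO with Control TMX). Between the controls it was 0.08 ± 0.26 (edgeR adjusted p = 0.927, 95% interval -0.49 to 0.65).

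Ceacam2, a close relative of Ceacam1, was scarce. It was at 4.19, 6.97, 5.35 and 17.9 CPM in Control OIL, where replicate 4 was the highest of all libraries. In Control TMX it was at 12.3, 11.5, 8.58 and 4.86 CPM and in Ehf IKO at 10.6, 9.94, 7.18 and 5.91 CPM. The means were 8.60 ± 6.29, 9.30 ± 3.36 and 8.41 ± 2.23 CPM. The log2 difference between the controls was 0.07 ± 0.42 (edgeR adjusted p = 0.964, 95% interval -0.83 to 0.97), the widest interval of the members. Without Control OIL replicate 4 it was 0.72 (edgeR adjusted p = 0.341), and the log2 difference between Ehf IKO and Control OIL went from -0.06 to 0.60. Reads that map to several places were not counted, which bears on this pair most. Of all 50-base windows of Ceacam2 transcripts 47.0% also occur in another gene, mostly Ceacam1, and of those of Ceacam1 30.4%, mostly in Ceacam2. At 100 bases the shares are 32.9% and 20.5%, and the sources used here give no read length. For Cd177 and Ceacam10 the shares at 50 bases are 5.51% and 3.0%.

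Ceacam18 was at 4.61, 7.19, 5.99 and 7.01 CPM in Control OIL. It was at 6.83, 7.05, 5.51 and 6.54 CPM in Control TMX and at 5.71, 10.8, 9.05 and 7.25 CPM in Ehf IKO. The 3 highest libraries were those of Ehf IKO, and its lowest lay within the range of the controls. The means were 6.20 ± 1.19, 6.48 ± 0.68 and 8.19 ± 2.19 CPM. The log2 difference was 0.39 ± 0.21 between Ehf IKO and Control OIL and 0.34 ± 0.21 between Ehf IKO and Control TMX. Between the controls it was 0.05 ± 0.21 (edgeR adjusted p = 0.945, 95% interval -0.40 to 0.50).

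Levels of different genes were compared per kilobase. In Control OIL the order by mean RPKM was Ceacam1 (254.5), Cd177 (92.7), Ceacam20 (53.8), Ceacam10 (19.4), Ceacam18 (3.15) and Ceacam2 (2.27). The ranges of Cd177 and Ceacam20 overlapped there, as did those of Ceacam18 and Ceacam2. In Control TMX Ceacam20 (57.0 RPKM) stood above Cd177 (32.4 RPKM) without overlap, and Ceacam10 (4.90 RPKM) came next. In Ehf IKO Ceacam1 (281 RPKM) and Ceacam20 (54.9 RPKM) were followed by Ceacam18 (4.16 RPKM), Cd177 (2.40 RPKM), Ceacam2 (2.22 RPKM) and Ceacam10 (0.864 RPKM). Cd177 thus went from the second place in Control OIL to the fourth in Ehf IKO, where its range of 1.46 to 2.98 RPKM overlapped those of Ceacam18 (2.90 to 5.46) and Ceacam2 (1.56 to 2.80). The ranges of Ceacam10 and Ceacam2 overlapped there as well.

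Within groups, Ceacam1, Ceacam20 and Ceacam2 varied together. After the group means were taken away, log2 CPM of Ceacam1 and Ceacam20 had an r of 0.87 (rho 0.90, n = 12 libraries), and 0.83 without the 2 libraries farthest from the median. For Ceacam1 and Ceacam2 the values were 0.76, 0.88 and 0.92, and for Ceacam2 and Ceacam20 they were 0.83, 0.85 and 0.81. Control OIL replicate 4 was the highest of its group for all 3 genes, and Control TMX replicate 4 and Ehf IKO replicate 4 were the lowest of theirs. Cd177 went the other way from Ceacam1 (r -0.63, and -0.49 without the 2 farthest libraries), and Ceacam10 from Ceacam20 (r -0.72, and -0.39 without the 2 farthest). These 15 relations among 6 genes come from the same 12 libraries and are given as a description. Ceacam1, Ceacam2 and Ceacam20 were higher in both female than both male libraries of Control TMX and Ehf IKO. Ceacam20 was instead higher in both male libraries of Control OIL, where the sexes overlapped for Ceacam1 and Ceacam2. With the additive term for sex also taken away, r was -0.45 for Cd177 with Ceacam1 and -0.70 for Ceacam10 with Ceacam20. For Ceacam1 it was 0.91 with Ceacam20 and 0.79 with Ceacam2. The part of sex in these relations was not tested.

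**Figure D2:**
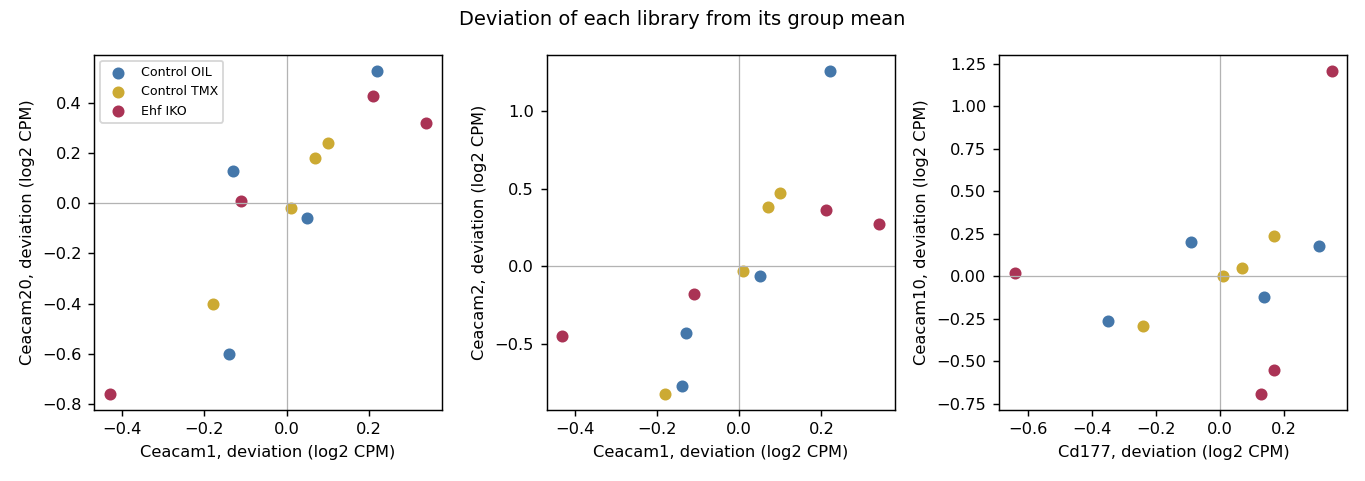
Deviation of each library from its group mean, in log2 CPM, for 3 pairs of genes, with 1 point per library and colours for the groups. Ceacam1 rises with Ceacam20 (r 0.87) and with Ceacam2 (r 0.76), while Cd177 and Ceacam10 show a looser relation (r 0.30).

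Marker levels moved with these within-group differences. Deviations of the summed proximal colon markers had an r of 0.81 with those of Ceacam1, 0.62 with Ceacam20, -0.73 with Cd177 and -0.82 with Ceacam10 (n = 12). With Ceacam2 and Ceacam18 the r was 0.42 and 0.32. The summed distal colon markers had the same signs, with an r of 0.37 with Ceacam1, 0.48 with Ceacam20, -0.32 with Cd177 and -0.68 with Ceacam10. The signs were thus not particular to the proximal markers, though each of these r values was weaker for the distal sum. The summed fibroblast markers had an r of 0.61 with Cd177, -0.64 with Ceacam1, -0.41 with Ceacam20 and -0.00 with Ceacam10. All 8 proximal markers were counted, with sums of 1050 to 1590 CPM in Control OIL, 1470 to 1660 in Control TMX and 1140 to 1990 in Ehf IKO, where replicate 4 was the lowest. Ehf IKO replicate 4 was also the lowest of its group for Ceacam1, Ceacam2 and Ceacam20 and the highest for Cd177 and Ceacam10. The 6 endothelial markers had an r of 0.90 with Ceacam1 and -0.82 with Cd177. Their sum was 3.95 to 5.42 CPM in Control OIL, 5.33 to 10.4 in Control TMX and 5.91 to 17.1 in Ehf IKO. Ehf IKO thus lay above Control OIL without overlap, but this rested on Pecam1, the most abundant of them. Without Pecam1 the other 5 summed to 1.78 to 2.86, 2.71 to 4.82 and 1.75 to 8.56 CPM, and Ehf IKO and Control OIL overlapped. The mitochondrial share of counts had an r of -0.60 with Ceacam1, -0.66 with Ceacam2 and -0.63 with Ceacam20. The part of any of these in the members' levels was not tested.

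Between groups, the distal colon markers (7 of 8 in the files) had sums of 495 to 620 CPM in Control OIL, 495 to 568 in Control TMX and 644 to 781 in Ehf IKO. They were thus higher in every Ehf IKO library than in any control library, while Cd177 and Ceacam10 were lower. That sum was led by the water channel gene Aqp8, at means of 225, 297 and 431 CPM, and without Aqp8 it was 238 to 409, 229 to 250 and 207 to 438 CPM. Hoxd13, a homeobox gene of the distal gut, had means of 23.5, 14.9 and 13.5 CPM. Fibroblast markers had a sum of 369 to 920 CPM in Ehf IKO, and 2 of the 6 tested rose against Control OIL. In that comparison 1.68% of all genes tested were called in either direction, 145 higher and 120 lower. Of the distal markers 0 of 7 were called there and of the colonic epithelium markers 1 of 13. Of the proximal markers 1 of 8 was called there, as lower in Ehf IKO. Against Control TMX 1 of 8 was also called lower, where 0.800% of all genes tested were called. Colonic epithelium markers had sums of 18800 to 31400, 29100 to 34200 and 21700 to 26000 CPM in Control OIL, Control TMX and Ehf IKO. Most of that was the mucin gene Muc2, at means of 15800, 20200 and 12300 CPM, and without it the sums were 8000 to 11200, 10600 to 12100 and 11200 to 12900 CPM. The part of these differences in the lower Cd177 and Ceacam10 was not tested. Without Ehf IKO replicate 2, the library that stood apart, the log2 differences from Control OIL and Control TMX were -5.09 and -3.57 for Cd177 and -4.43 and -2.46 for Ceacam10.

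Since CD177 is known from neutrophils, their markers were summed. All 17 had a count in some library, but 6 of them (Elane, Prtn3, Retnlg, Mmp8, Ctsg and Fpr1), among them the gene of proteinase 3, never had more than 3 reads in a library. The sums were 18.3 to 42.1 CPM in Control OIL, 14.2 to 28.3 in Control TMX and 13.0 to 32.3 in Ehf IKO, overlapping in all groups. Most of that was Ly6g, at 15.4 to 33.5, 11.3 to 26.1 and 10.6 to 24.7 CPM. The other 16 summed to 2.55 to 8.59, 1.91 to 2.95 and 2.26 to 7.59 CPM, against 203 to 321 CPM of Cd177 in Control OIL. S100a8 and S100a9, among the most abundant neutrophil transcripts, had 11 and 16 reads over all 12 libraries. Deviations of Ly6g, a Ly6-family gene used as a neutrophil marker, went with those of Ceacam20 (r 0.91), Ceacam2 (r 0.89) and Ceacam1 (r 0.85), and the other way from Ceacam10 (r -0.62) and Cd177 (r -0.32). The other 16 markers had an r of 0.46 to 0.54 with Ceacam20, Ceacam2 and Ceacam1, of -0.24 with Cd177 and of 0.00 with Ceacam10.

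The genes around Cd177 and Ceacam10 were examined within 500000 bases on each side. Of 63 neighbours, 12 had no read and 23 could be tested, and 0 were called in any comparison by edgeR, DESeq2 or limma-voom. At an unadjusted p under 0.05 edgeR had 2, 4 and 4 of them in Ehf IKO with Control OIL, Ehf IKO with Control TMX and Control TMX with Control OIL. Over all genes tested, 11.9%, 11.9% and 12.9% had an unadjusted p under 0.05 in those comparisons, and 1.68%, 0.800% and 0.0826% were called. Counts at an unadjusted p given later for other lists are to be read against the same shares. The neighbours' log2 differences ran from -0.47 to 0.43, from -0.47 to 0.60 and from -0.18 to 0.76, with medians of 0.04, -0.12 and 0.11 beside -0.01, 0.02 and -0.01 over all genes. The nearest tested gene before Cd177 was Phldb3, 114686 bases away, with a log2 difference of 0.23 ± 0.17 between Ehf IKO and Control OIL (edgeR adjusted p = 0.677). The nearest after Ceacam10 was Rps19, a ribosomal protein gene 99714 bases away, with -0.00 ± 0.18 (edgeR adjusted p = 0.995). Ethe1, which encodes a mitochondrial sulfur dioxygenase and was the most abundant neighbour, was at 208 ± 53.3, 275 ± 12.7 and 243 ± 9.44 CPM in the 3 groups, with 0.22 ± 0.14 (edgeR adjusted p = 0.599). Of the other Ly6 and uPAR genes among the neighbours, all but Plaur were nearly silent. Over 12 libraries there were 2 reads for Lypd11 (17075 bases away), 3 for Lypd10, 3 for Tex101 and 9 for Lypd3. Pinlyp had 2, Lypd5 had 6 and Lypd4, on the side of Ceacam10, had 2. Plaur, the gene of the urokinase receptor uPAR, lies 268015 bases before Cd177 and is named here after its values were seen. It was at 7.97 ± 1.11, 7.06 ± 1.77 and 10.7 ± 2.89 CPM. Its log2 difference of 0.60 ± 0.22 between Ehf IKO and Control TMX, the largest of the neighbours there, did not pass (edgeR adjusted p = 0.287).

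**Figure D3:**
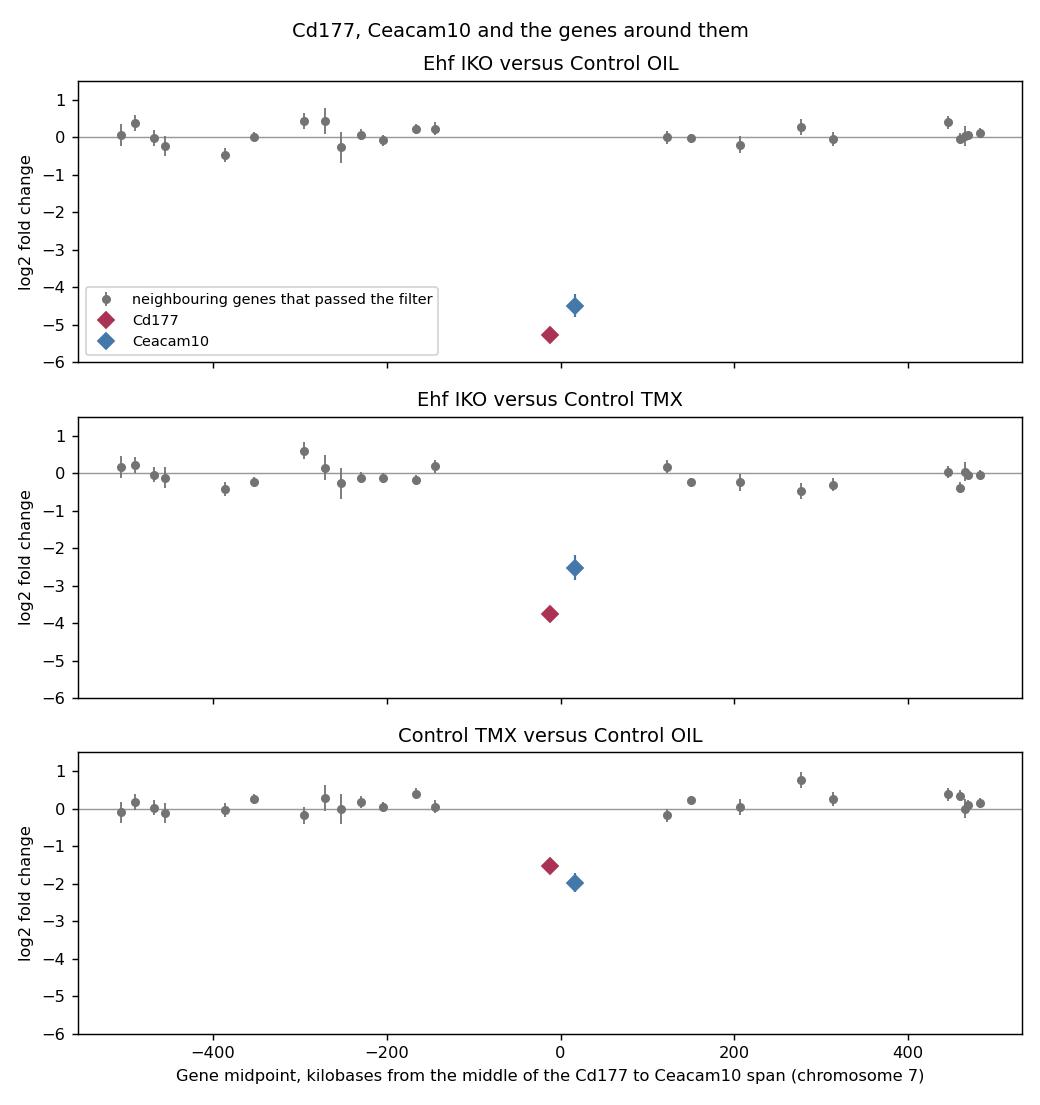
Log2 fold change (± SE) of Cd177, Ceacam10 and the 23 neighbouring genes that passed the filter, by distance of the gene's midpoint from the middle of the Cd177 to Ceacam10 span in kilobases, with 1 panel per comparison. The neighbours lie between -0.47 and 0.76 in the 3 panels, and Cd177 and Ceacam10 lie between -5.26 and -1.52.

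The rest of the Ceacam and Psg family was close to silent. Of 23 further genes, 4 passed the filter on low counts: Psg28, Psg26, Ceacam12 and Psg25, with 280, 168, 115 and 100 reads over the 12 libraries. The other 19 had 1 to 31 reads each. By edgeR, DESeq2 and limma-voom 0 of the 4 were called in any comparison, with 1, 0 and 1 at an unadjusted edgeR p under 0.05. Psg28 had a log2 difference of 0.07 ± 0.36 between Ehf IKO and Control OIL (edgeR adjusted p = 0.977), and Psg26 of 0.84 ± 0.49 (edgeR adjusted p = 0.567). Ceacam12, named after its values were seen, was at 2.24, 3.21, 1.27 and 1.28 CPM in Control OIL. It was at 0.311, 0, 1.06 and 1.31 CPM in Control TMX and 0.815, 0.966, 0.532 and 0.403 CPM in Ehf IKO, from 0 to 14 reads per library in these 2 groups. Its log2 differences from Control OIL of -1.53 ± 0.57 in Ehf IKO (edgeR adjusted p = 0.249) and -1.44 ± 0.55 in Control TMX (edgeR adjusted p = 0.305) did not pass. Ehf IKO replicate 2 had at least 1 read in 22 of these 23 genes, against 5 to 14 in the other libraries. Of the 19 that did not pass the filter it had a read in 18, against 1 to 10 elsewhere.

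Genes of proteins that CEACAMs contact or signal through did not pass the test. Of 10, 9 were tested and 0 were called in any comparison by edgeR, DESeq2 or limma-voom, with 1, 2 and 1 at an unadjusted edgeR p under 0.05. Their median log2 differences were 0.07, -0.04 and 0.15. Ctnnb1, which encodes the beta-catenin that binds the CEACAM1 tail, was at 517 ± 27.0, 532 ± 28.9 and 518 ± 5.47 CPM. Ptprh, the microvillar phosphatase that acts on CEACAM20, was at 144 ± 35.2, 191 ± 47.9 and 184 ± 60.1 CPM, with a log2 difference of 0.35 ± 0.27 between Ehf IKO and Control OIL (edgeR adjusted p = 0.707). Of 4 partners of CD177, the genes of proteinase 3 and of the integrin chain Itgam were too scarce to test. Pecam1 was at 2.44 ± 0.32, 5.19 ± 1.75 and 5.61 ± 2.41 CPM, and its log2 difference between Ehf IKO and Control OIL of 1.19 ± 0.33 did not pass (edgeR adjusted p = 0.0923), though DESeq2 called it. Pecam1 is also 1 of the 6 endothelial markers whose sum was higher in Ehf IKO than in Control OIL, and without it the sums overlapped. Itgb2 was at 2.69 ± 0.70, 2.45 ± 1.00 and 3.25 ± 0.51 CPM, with 0.28 ± 0.29 (edgeR adjusted p = 0.812). By edgeR 0 of these 2 were called in any comparison, with 1, 0 and 1 at an unadjusted p under 0.05.

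Of 39 further genes of the Ly6 and uPAR family, 14 were tested. Ly6g6c rose in Ehf IKO against Control OIL, by 2.56 ± 0.38 on the log2 scale (edgeR adjusted p = 0.00326), from 0.551 ± 0.23 to 3.35 ± 1.24 CPM, with Control TMX at 1.56 ± 0.28 CPM. No other was called there, so that 1 of 14 was, beside 1.68% of all genes tested, and 0 were called in the other 2 comparisons by edgeR, with 4, 5 and 4 at an unadjusted p under 0.05. DESeq2 also called Ly6a and Ly6c1 lower in Control TMX than in Control OIL. The median log2 differences of the 14 were 0.05, 0.26 and -0.16. Lypd8, a GPI-anchored protein of colonic enterocytes that keeps flagellated bacteria from the epithelium, was the most abundant of the family at 2200 ± 245, 1910 ± 33.7 and 2280 ± 62.7 CPM. Its log2 difference between Ehf IKO and Control TMX was 0.26 ± 0.10 (edgeR adjusted p = 0.33). Ly6m was at 40.5 ± 15.1, 103 ± 54.8 and 119 ± 54.0 CPM, with 1.33 ± 0.49 between the controls (edgeR adjusted p = 0.311).

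The machinery that makes and attaches GPI anchors, which CD177 carries, was measured through 28 genes, and 0 were called in any comparison by edgeR. At an unadjusted p under 0.05 there were 2, 5 and 2, and DESeq2 called Pgap1 higher in Ehf IKO than in Control TMX, while limma-voom called 0. The medians were -0.03, 0.05 and -0.00. Pigt, a subunit of the transamidase that attaches the anchor, was at 81.9 ± 9.62, 90.2 ± 1.91 and 79.7 ± 14.7 CPM, with a log2 difference of -0.04 ± 0.12 between Ehf IKO and Control OIL (edgeR adjusted p = 0.951). Pign, an enzyme that modifies the anchor, was at 60.0 ± 3.13, 53.1 ± 5.98 and 61.9 ± 7.26 CPM, with 0.04 ± 0.11 (edgeR adjusted p = 0.938).

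The genes whose levels followed Cd177 most closely were sought among 11883 candidates, members left out, by Pearson r of log2 CPM over 12 libraries. The r of Ceacam10 itself with Cd177 was 0.957. Of the candidates Pglyrp1, which encodes an antibacterial peptidoglycan recognition protein, came first (r 0.974), at 56.5 ± 6.97, 35.5 ± 4.79 and 18.0 ± 3.29 CPM. It was followed by the sialyltransferase gene St6galnac6 (0.961), the calpain gene Capn13 (0.955), the lactoperoxidase gene Lpo (0.952), the riboflavin transporter gene Slc52a3 (0.947) and Ggh (0.932), which encodes gamma-glutamyl hydrolase. Ggh is also 1 of the 8 proximal colon markers. All these r values share the group differences. Within groups, deviations from the group means kept an r with Cd177 of 0.81 for Pglyrp1, 0.67 for Capn13 and 0.55 for Slc52a3, but of 0.10 for St6galnac6, -0.30 for Ggh and -0.51 for Lpo. The groups differed less in most of these genes than in Cd177. St6galnac6 went from 495 to 454 and 234 CPM and Capn13 from 70.5 to 48.3 and 25.4 CPM, whereas Lpo went from 26.1 to 19.3 and 1.12 CPM. In Control TMX, where Cd177 was lower by 2.86-fold than in Control OIL, Lpo was at 19.3 ± 3.22 beside 26.1 ± 6.29 CPM.

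Apart from Cd177, the genes most like Ceacam10 were Ncbp1, a nuclear cap-binding protein gene (r 0.954), Pglyrp1 (0.953), the galactosyltransferase gene B4galt4 (0.952) and Gfpt1 (0.946), the first enzyme of the hexosamine pathway. Ncbp1 was at 35.0 ± 1.40, 29.4 ± 2.19 and 25.1 ± 2.27 CPM and B4galt4 at 40.2 ± 7.16, 32.2 ± 2.83 and 20.8 ± 3.54 CPM. Within groups the r with Ceacam10 was 0.73 for Ncbp1, 0.75 for B4galt4, 0.32 for Pglyrp1 and 0.24 for Gfpt1. Pglyrp1 was thus the gene named for both, and the other Ceacam members followed neither, with r from -0.58 to -0.02.

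**Figure D4:**
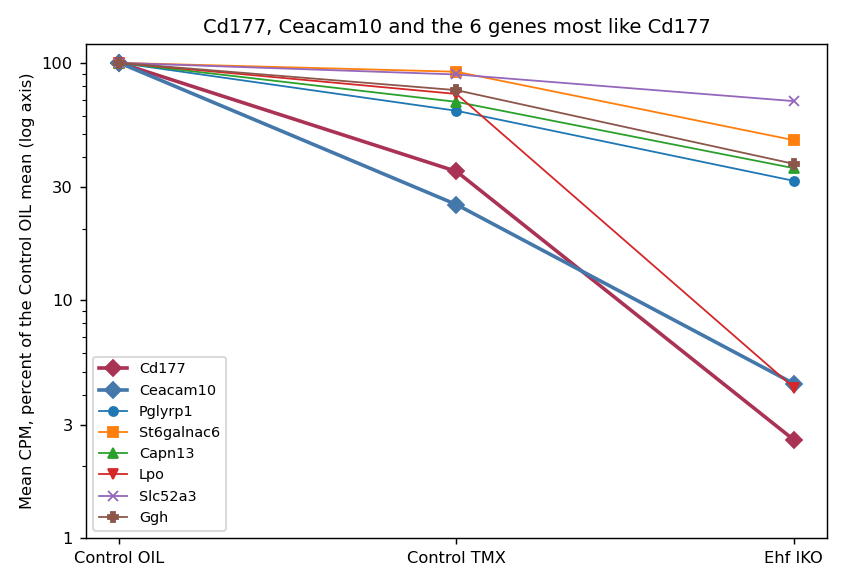
Mean CPM of Cd177, Ceacam10 and the 6 genes most like Cd177 in each group, as a percent of the Control OIL mean on a log axis. Cd177 and Ceacam10 lie under the other genes in Control TMX, and in Ehf IKO Lpo, at 1.12 CPM, lies with them.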

How the data were processed

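The values analysed are counts of reads per gene symbol, deposited by the authors as 1 file per library. Per the file headers, the authors made them with featureCounts 1.6.1 over exons of Ensembl GRCm38 release 98, with strand setting 0, and without the options that would count reads of several places or several genes. Per the submitters' processing notes, STAR was the aligner, with no version given in the sources used here. Of 55304 symbols, 41205 had a count.

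CPM is the count per 1000000 reads in tested genes, scaled with TMM factors, and RPKM is CPM per kilobase of exon. edgeR 4.0.16 (R 4.3.3) fitted all 12 libraries by group after the filterByExpr filter, with quasi-likelihood tests, 9 residual degrees of freedom and Benjamini-Hochberg adjustment over 15743 genes, and an adjusted p under 0.05 was called. The steps were tested on simulated data. DESeq2 1.42.0, limma-voom (limma 3.58.1), other filters, scalings and sample sets, sex (from the counts of Xist and of genes on the Y chromosome) and the replicate number were alternatives. The members and lists were chosen with earlier results of these data known. Correlations use log2 CPM with a prior count of 2. Named beside the members were, per list, up to 3 called genes with the smallest p or, with none called, the 2 of highest mean CPM, the nearest tested neighbours, and the 6 genes most like Cd177 and 4 most like Ceacam10 with an average log2 CPM of at least 1, members left out. Genes that other tools called, and genes nearly without reads, were named after their values were seen. Source names carry a separate number for each library, taken here as a mouse, and no batch is labelled.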

Additional observations from a re-analysis of the deposited data

How the results depend on the processing

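The falls of Cd177 and Ceacam10 between the controls were called in all 21 alternatives, with adjusted p of at most 0.0182 and 0.0414, and the other 4 members in none. The alternatives refit the same libraries for genes chosen with these levels known, so they are not independent support. Against Control OIL and Control TMX, the log2 differences of Ehf IKO ran from -5.38 to -5.09 and -3.87 to -3.57 for Cd177. For Ceacam10 they ran from -5.20 to -4.23 and -3.23 to -2.26, and the largest came without Ehf IKO replicate 4. The sign of the small differences of Ceacam1, Ceacam2 and Ceacam20 changed in up to 7 of 21 alternatives, and that of Ceacam18 in 1 between the controls. Without Control OIL replicate 4, Ceacam2 moved from -0.06 to 0.60 in Ehf IKO and from 0.07 to 0.72 in Control TMX against Control OIL. All 18 group means stayed within 1 SD without TMM. The number of genes called over all genes tested depended more on the settings, and the cause was not tested. For Ehf IKO with Control OIL, 265 genes (1.68%) were called. It was 724 (1.76%) with no filter, 534 (3.39%) with DESeq2, 0.740% from the 2 groups alone and 0.650% to 4.41% (104 to 711) with a library left out, most without Ehf IKO replicate 4. For Ehf IKO with Control TMX, 126 (0.800%) were called. It was 500 (1.21%) with no filter, 305 (1.94%) with DESeq2 and 0.312% to 1.00% (50 to 162) with a library left out. For Control TMX with Control OIL, 13 (0.0826%) were called. It was 441 (1.07%) with no filter, 5 (0.0358%) at a mean log2 CPM of at least 1, 197 (1.25%) with DESeq2, 8 (0.0508%) with limma-voom, 38 (0.241%) with sex as a covariate and 0.0187% to 0.415% (3 to 67) with a library left out. Among list and neighbour genes, 1, 0 and 0 were called in the 3 comparisons in that order, 6, 6 and 3 with no filter, 2, 1 and 2 with DESeq2, and 1 to 5, 0 to 1 and 0 to 2 with a library left out. From the 2 groups alone, 1 was called for Ehf IKO with Control TMX.

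The replicate numbers did not pair the samples. Of 12 same-numbered pairs of libraries 5 had a correlation of deviations above 0.1 (r -0.406 to 0.405), and in 7 of 24 checks a library correlated best with its own number. With the replicate block 173 (1.10%), 72 (0.457%) and 18 genes were called in the 3 comparisons, and the calls of Cd177 and Ceacam10 between the controls held. Ceacam10 rests on 5 to 21 reads per library in Ehf IKO, and Ceacam1 and Ceacam2 on the reads that tell them apart.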

Other observations

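Between the controls 13 genes were called, 7 of them lower in Control TMX. Beside Cd177 and Ceacam10, the lower genes were Nos2, which encodes the inducible nitric oxide synthase (log2 difference -2.55 ± 0.30, edgeR adjusted p = 0.00404), Duoxa2, the maturation factor of an epithelial oxidase (-1.56 ± 0.22, edgeR adjusted p = 0.0129), Lyrm7 (-1.40 ± 0.20, edgeR adjusted p = 0.0123), Tnip3 (-1.07 ± 0.18, edgeR adjusted p = 0.0413) and Gm21718 (-8.80 ± 1.24, edgeR adjusted p = 0.0418). Among the 6 higher genes, Ppargc1a, a coactivator of mitochondrial genes, rose by 0.92 ± 0.15 (edgeR adjusted p = 0.0413) and Irs2, an adaptor of insulin signalling, by 0.81 ± 0.14 (edgeR adjusted p = 0.0418). These genes were named after their values were seen. The higher calls depended on the settings. At a mean log2 CPM of at least 1, 0 genes were called higher, with limma-voom 1 and with DESeq2 122. With Control TMX replicate 1, 2 or 3 or Ehf IKO replicate 1, 2 or 3 left out in turn, 0 were called higher.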
